A study of Mus musculus with 2 samples.

Results

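The genes described here are the 7 core genes of MHC class II presentation, chosen by symbol: H2-Aa, H2-Ab1, H2-Eb1, Cd74, H2-DMa, H2-DMb1 and Ciita. They were followed through single-cell RNA data of the mouse heart, as 7 of 27998 genes in the count tables of 2 animals. Both mice were wild-type C57BL/6 of 10 to 12 weeks and formed 1 group without treatment, so every comparison is between cell populations of the same hearts. Each library held the live ventricular cells of 1 mouse after the atria and the cardiomyocytes had been removed, made with the droplet 3' kit in its second version. Each captured RNA molecule carries its own barcode, a UMI, and CPM is the number of UMIs of a gene per 1000000 UMIs of the summed cells.

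MHC class II molecules sit on antigen-presenting cells and show peptides from taken-up protein to CD4+ T cells. An alpha and a beta chain pair in the endoplasmic reticulum around the invariant chain, which is encoded by Cd74 and fills the groove. H2-DM, made of H2-DMa and H2-DMb1, later exchanges the remnant of that chain for a peptide. Ciita encodes the co-activator that switches the other genes on together, through factors bound at conserved promoter boxes. Dendritic cells and B cells carry class II at rest, macrophages carry it to a degree that varies with their origin and state, and mouse T cells do not make it. C57BL/6 mice transcribe H2-Eb1 but lack the alpha chain that would pair with it, because of a deletion in H2-Ea.

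H2-Aa and H2-Ab1 encode the alpha and beta chain of the I-A molecule. In the mm10 build, H2-Aa lies at chr17:34282744-34287823 on the minus strand and H2-Ab1 at chr17:34257689-34269419 on the plus strand. H2-Eb1, the beta chain of I-E, lies beside them at chr17:34305867-34316674, and H2-DMa and H2-DMb1 lie at chr17:34119541-34139101 and chr17:34153072-34160230, these 3 on the plus strand. Ciita lies apart from these, at chr16:10480059-10528418 on the plus strand, and Cd74 on another chromosome still. The annotation (GENCODE M21) lists each of the 7 as a protein-coding gene. The counts are per gene and do not separate exons or isoforms.

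The promoters of the chain genes hold the boxes through which Ciita acts, so the 150 bases before the start are shown for 2 chain genes whose start is the same base in RefSeq and GENCODE. The sequences are from RefSeq (GRCm38.p6), where 4 of the 7 genes had an entry. Of these, Cd74 was not searched for the motifs below. They run 5′ to 3′ on the gene's own strand, and capitals mark matches to the X box core AGNAACNG, in which N is any base, and to the Y box ATTGG or its reverse complement CCAAT.
H2-Eb1, chr17:34305717-34305866, plus strand: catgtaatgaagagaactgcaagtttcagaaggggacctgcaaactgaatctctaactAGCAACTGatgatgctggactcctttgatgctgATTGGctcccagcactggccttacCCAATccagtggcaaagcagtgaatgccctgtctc
H2-Aa, chr17:34287824-34287973, minus strand: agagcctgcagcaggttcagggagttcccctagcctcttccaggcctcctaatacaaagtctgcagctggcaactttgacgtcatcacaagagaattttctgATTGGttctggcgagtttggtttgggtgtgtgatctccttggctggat
In H2-Eb1 the X match lay 92 to 85 bases before the start and the Y match 59 to 55 bases before it, with 25 bases between them. A CCAAT on the other strand followed at 35 to 31 bases. H2-DMb1 had the same pair before its RefSeq start, with 26 bases between the matches. That start lies 119 bases after its GENCODE start, so the matches fall inside the gene span given above. H2-Aa had the Y match at 48 to 44 bases, and the letters AGNAACNG were not in its window. Of 32851 RefSeq promoters, with both strands searched and no overlap between the motifs, 24.5% held the Y letters in such a window, 8.79% held the X letters and 2.05% held both. A match is a description of letters and not a measured binding site.

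Populations were set by UMI thresholds on genes that are none of the 7. Macrophages had at least 15 UMIs of C1qa, C1qb and C1qc together, and numbered 3001 in mouse 1 and 2362 in mouse 2. Within them, 132 and 112 cells had at least 2 UMIs of Ccr2, a receptor of monocyte-derived macrophages. Another 1821 and 975 had at least 2 UMIs of Timd4 and Lyve1 together, genes of self-renewing resident macrophages, and 1025 and 1266 passed neither threshold. Dendritic cells (Cd209a at 1 UMI or more and at most 10 C1q UMIs) numbered 9 and 25, which limits every value given for them. Endothelium (Pecam1, Cdh5 and Egfl7 at 2 or more together) gave 961 and 1298 cells, and fibroblasts (Dcn at 5 or more) gave 1863 and 1307. T cells, with 101 and 86 cells, served as the background, since they should lack class II.

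The tables held 21355383 UMIs over 7732 barcodes in mouse 1 and 15174548 UMIs over 6367 barcodes in mouse 2, and 6608 and 5687 cells were kept, with a median of 2542.5 and 2194 UMIs. The libraries shared 65 barcodes. Macrophages, dendritic cells, endothelium and fibroblasts were compared with lists of marker genes. The 7 endothelial markers summed to 26364 and 28106 CPM in endothelium, and the 7 fibroblast markers to 34971 and 44084 CPM in fibroblasts. T cells, and the B cells used below, were not checked here by their own genes outside the rule. The 12 macrophage markers summed to 33254 and 33771 CPM in macrophages, against 972 and 825 CPM in endothelium and 775 and 697 CPM in fibroblasts. In dendritic cells the macrophage markers summed to 9415 and 8473 CPM. In T cells, the background, they summed to 1759 and 1984 CPM, above endothelium and fibroblasts. Single genes varied widely there as a share of the macrophage level. Laptm5 stood at 93.8% and 95.5%, Tyrobp at 8.08% and 10.0% and Lyz2 at 2.38% and 2.27%. The 4 natural killer (NK) cell markers summed to 1605 and 1827 CPM in T cells, so this group may hold NK cells. The 10 dendritic markers summed to 4060 and 2387 CPM in dendritic cells and 1023 and 993 CPM in macrophages. Flt3, a defining dendritic gene, had 2 and 8 UMIs in the dendritic cells, while Ccr7 was at 0 there and, of the 5 markers of the cross-presenting (cDC1) type, 5 and 4 were at 0.

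Class II transcripts were concentrated in dendritic cells and macrophages. The 7 genes together made up 107432 and 78400 CPM in the dendritic cells of mouse 1 and mouse 2, 32114 and 45776 CPM in macrophages, 670 and 933 CPM in endothelium and 433 and 616 CPM in fibroblasts. Because macrophages were many, they held 90.8% and 86.4% of all UMIs of the 7 genes in the kept cells. The dendritic cells of the Cd209a rule held 1.34% and 2.09%, or 4393 and 7291 UMIs. This share leaves out 7 and 24 cells in no population with a UMI of the cDC1 genes Xcr1 or Clec9a, which held 3327 and 13347. Cd74 alone gave 51.0% and 50.4% of the UMIs of the 7 genes in macrophages, and 48.3% and 47.8% in dendritic cells. The 3' kit yields 1 tag per captured molecule, so CPM was not divided by transcript length, and capture may still differ between genes.

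**Figure D1:**
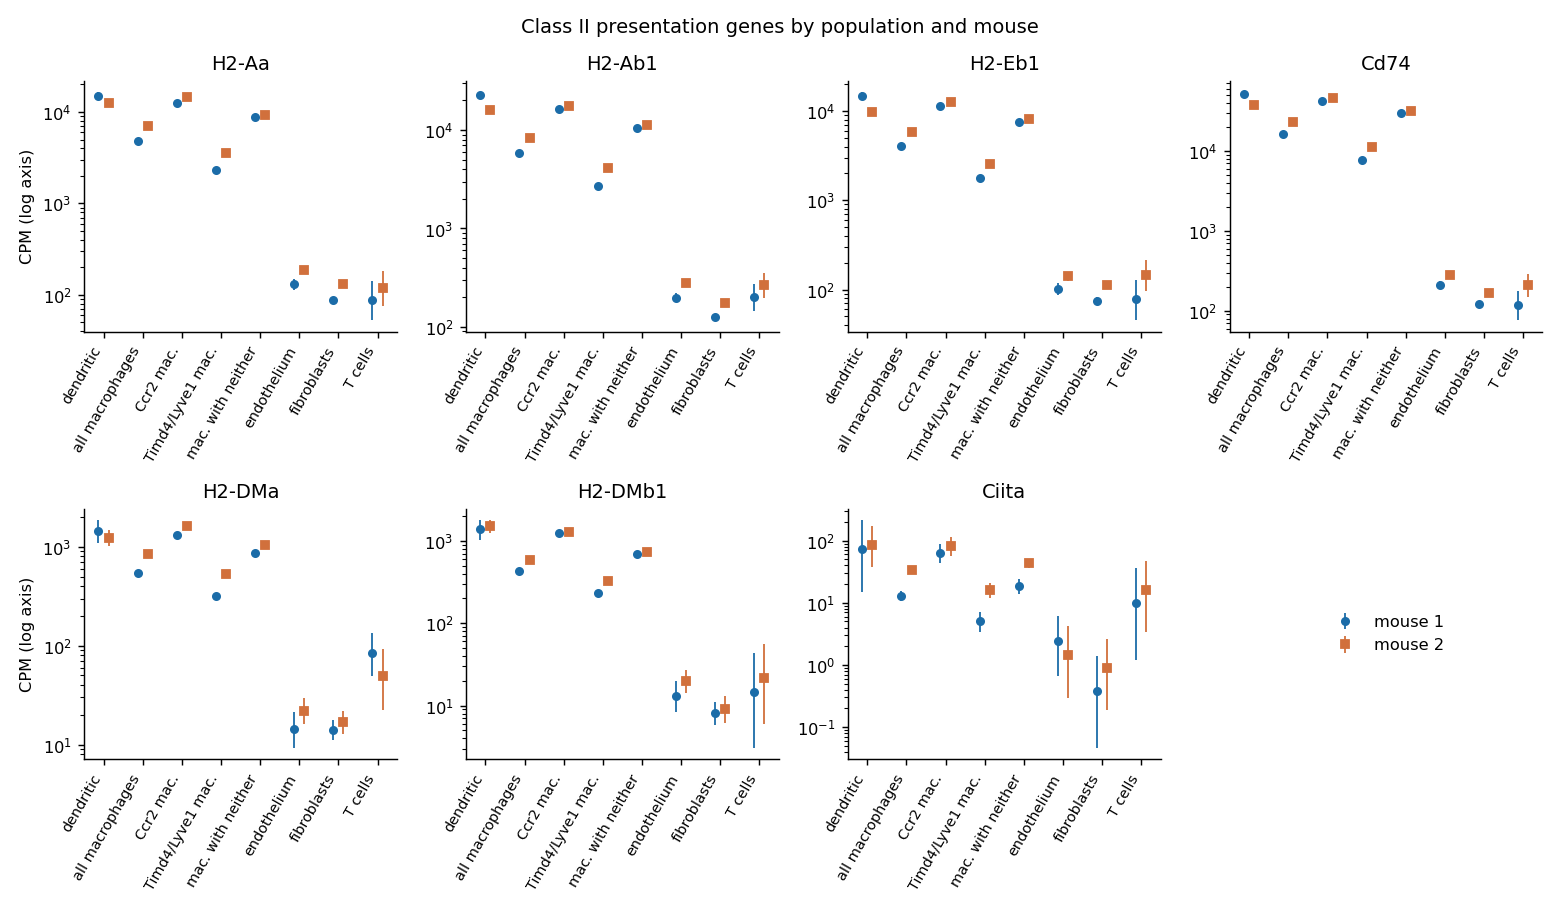
CPM (log axis) of each of the 7 genes in 8 populations, with a point per mouse and bars for the exact Poisson 95% interval, which covers counting error only. Dendritic cells and macrophages lie far above endothelium, fibroblasts and T cells for the chain genes and Cd74; for Ciita the intervals of T cells are wide, from 2 and 3 UMIs.

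Among the chain genes, H2-Ab1 had 22621 and 16043 CPM in dendritic cells, 5811 and 8385 in macrophages, 198 and 278 in endothelium and 126 and 176 in fibroblasts. H2-Aa had 15113 and 12377 CPM in dendritic cells, 4857 and 7025 in macrophages, 130 and 188 in endothelium and 87.0 and 133 in fibroblasts. H2-Eb1 had 14967 and 9688 CPM in dendritic cells, 4073 and 5820 in macrophages, 101 and 141 in endothelium and 74.9 and 112 in fibroblasts. The order of the 4 populations was the same for all 3 genes. Both mice of dendritic cells lay above both of macrophages, and these above both mice of the other 2 populations. How many of all genes are separated in this way was not counted, so this only describes the values. Endothelium and fibroblasts overlapped for H2-Aa and H2-Eb1, where mouse 1 of endothelium was below mouse 2 of fibroblasts.

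Cd74, the invariant chain gene at chr18:60803848-60812652 on the plus strand, had the highest level of the 7. It had 51845 and 37474 CPM in dendritic cells (44660 ± 10162, SD, n = 2), 16394 and 23093 in macrophages (19744 ± 4737), 212 and 283 in endothelium and 122 and 169 in fibroblasts. The peptide exchange genes were far lower. H2-DMa had 1443 and 1237 CPM in dendritic cells, 538 and 843 in macrophages, 14.4 and 22.1 in endothelium and 14.2 and 16.9 in fibroblasts. H2-DMb1 had 1369 and 1495 CPM in dendritic cells, 428 and 577 in macrophages, 13.2 and 19.7 in endothelium and 8.13 and 9.07 in fibroblasts. Mouse 2 was above mouse 1 in macrophages for every one of the 7 genes. H2-DMb1 shares much of its sequence with its neighbour H2-DMb2, so the split of reads between these 2 is uncertain.

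Ciita, the co-activator, was the least abundant. It had 73.4 and 86.0 CPM in dendritic cells, from 3 and 8 UMIs, and 12.9 and 33.6 CPM in macrophages, from 119 and 221 UMIs. Endothelium gave 4 and 3 Ciita UMIs (2.40 and 1.44 CPM) and fibroblasts 2 and 3 (0.378 and 0.907 CPM). Over both mice, the Ciita level of dendritic cells was 3.83-fold that of macrophages (95% counting interval 1.89 to 6.93). The level in macrophages was 11.5-fold that of endothelium (5.52 to 28.8) and 36.9-fold that of fibroblasts (15.7 to 114). Over endothelium the log2 fold change was 2.42 in mouse 1 alone and 4.54 in mouse 2 alone, from 4 and 3 endothelial UMIs. The interval covers counting error only. In macrophages the Ciita counting intervals of the mice did not overlap, at 10.7 to 15.4 CPM in mouse 1 and 29.3 to 38.3 CPM in mouse 2. The intervals of these ratios over both mice leave out that difference. Whether the fold change over endothelium differs between the mice beyond counting error was not tested. Between endothelium and fibroblasts the ratio was 3.21, with an interval from 0.877 to 12.8 that includes no difference.

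The 4 populations were compared in 1 edgeR quasi-likelihood fit on UMIs summed per population and mouse, with mouse as a block, so the comparisons share sums. Genes were called at a Benjamini-Hochberg adjusted p under 0.05 over all 11562 tested, together with a log2 fold change of 1 or more in either direction. Macrophages were higher than endothelium in all 7 genes, beside 13.5% of genes tested that were called higher. They were higher than fibroblasts in all 7 as well, beside 14.8%. Cd74 differed most, by a log2 fold change of 6.44 ± 0.25 (SE) over endothelium, with an edgeR adjusted p of 1.96e-20, and by 7.15 ± 0.26 over fibroblasts, with an edgeR adjusted p of 2.38e-21. These fold changes ranked 65 and 15 of all genes tested. The 5 other chain and DM genes lay between 5.02 and 5.48 over endothelium and between 5.50 and 5.90 over fibroblasts. Ciita was 3.75 ± 0.44 over endothelium and 5.14 ± 0.43 over fibroblasts. The median over all genes tested was -0.26 and -0.30.

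Dendritic cells were higher than macrophages in 2 of the 7 genes and lower in 0, beside 1.39% of genes called higher and 3.69% called lower. The called genes were H2-Ab1, at 1.10 ± 0.20 with an edgeR adjusted p of 0.000232, and H2-DMb1, at 1.17 ± 0.18 with an edgeR adjusted p of 3.63e-05. H2-Aa (0.87), H2-Eb1 (0.96) and Cd74 (0.83) had an edgeR adjusted p below 0.05 and missed the fold threshold, and over 13 alternatives theirs reached 0.131, 0.0971 and 0.173. H2-DMa at 0.59 and Ciita at 1.39 ± 0.57 had adjusted p-values of 0.0709 and 0.192 in edgeR. The dendritic sums are shallow, 40891 and 92998 UMIs, and scaling moved this contrast: the median over all genes was -0.61 with TMM scaling. Of the calls, 27.4% were higher with TMM and 47.6% with library size alone. With library size alone 5 of the 7 genes were called, beside 256 of 11562 called higher, and Cd74 was at 1.21. With no low-count filter, or with 10 C1q UMIs as the macrophage threshold, none of the 7 was called. Beside this, 151 of 17582 and 129 of 11551 genes were called higher. The latter setting also lowered the C1q ceiling of dendritic cells, which left 8 and 24 of them. In both settings Ciita was above the fold threshold and the other 6 were below it. Over 13 alternatives the adjusted p stayed at or below 0.0406 for H2-Ab1 and 0.0167 for H2-DMb1, both highest in edgeR without the mouse block. In mouse 1 alone H2-Ab1 was at 1.96 and H2-DMb1 at 1.68, and in mouse 2 alone they were at 0.94 and 1.37. These single-mouse values are log2 ratios of CPM without TMM scaling, unlike the values of the fit.

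Endothelium over fibroblasts gave no call among the 7, beside 14.3% of genes called higher and 16.3% called lower. The log2 fold changes ran from 0.15 for H2-DMa to 1.38 for Ciita. Without the fold threshold, 4 of them (H2-Aa, H2-Ab1, Cd74 and H2-DMb1) had an edgeR adjusted p below 0.05, the lowest being 0.00599 for Cd74, which over 10 alternatives reached 0.107. With stricter endothelial and fibroblast thresholds, the fold change of H2-DMa was -0.048 and that of Ciita -4.26, neither of them called.

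**Figure D2:**
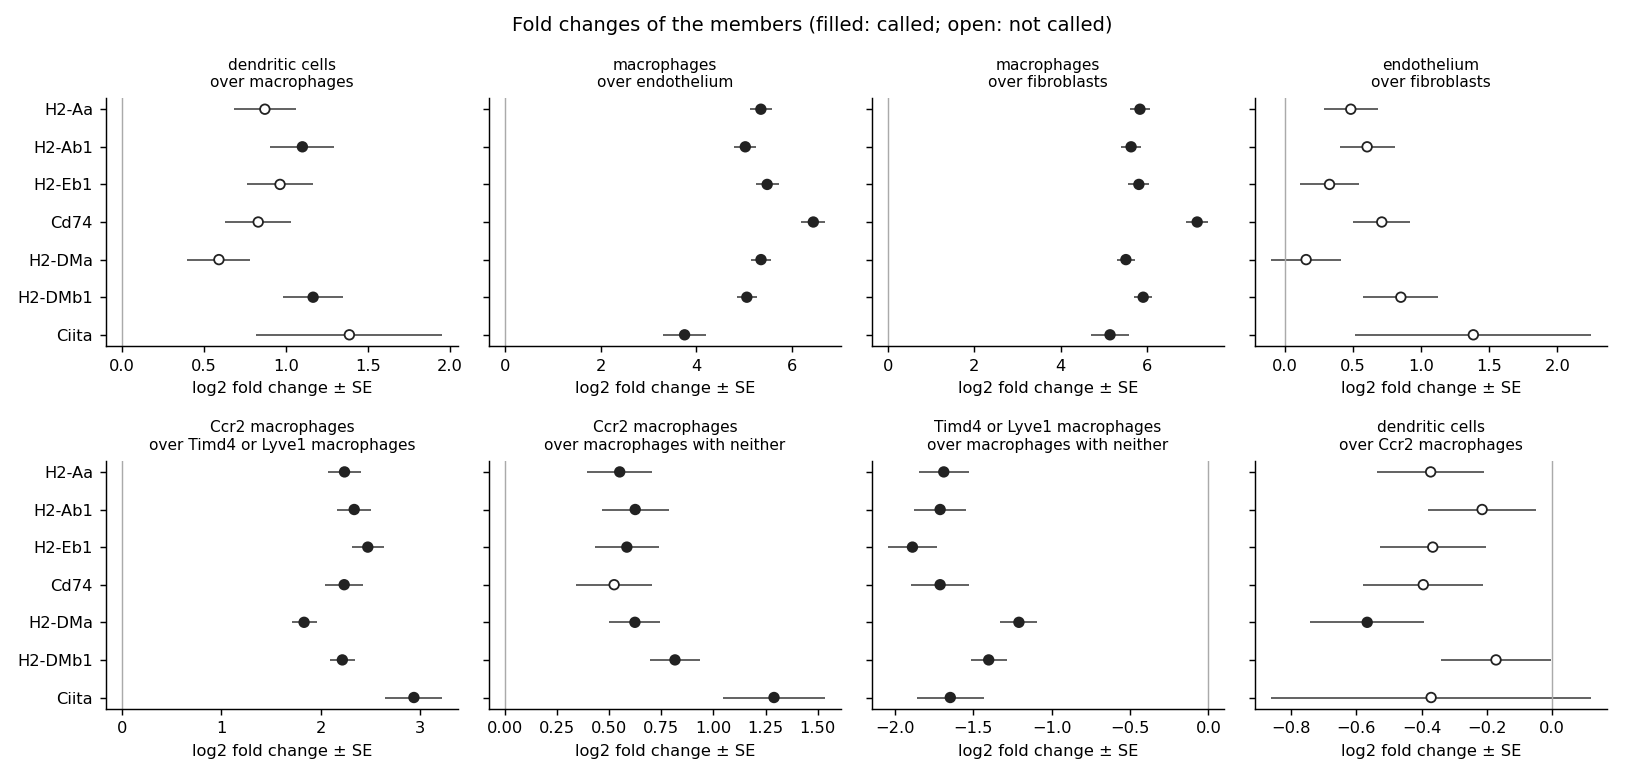
Log2 fold changes ± SE (edgeR, 2 mice per population) of the 7 genes in the 8 comparisons, with filled points for calls and open points for values not called. The 7 genes are near 5 to 7 in macrophages over endothelium and over fibroblasts apart from Ciita over endothelium at 3.75, and lie between 1.83 and 2.94 in Ccr2 macrophages over Timd4 or Lyve1 macrophages.

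In endothelium and fibroblasts, class II transcripts stood at a few percent of the macrophage level, as did genes that mark macrophages. Endothelium had 1.29% and 1.23% of the macrophage CPM of Cd74, and 3.40% and 3.32% of that of H2-Ab1. In fibroblasts the same genes stood at 0.746% and 0.731%, and at 2.17% and 2.09%. T cells had 0.723% and 0.916% of the macrophage level of Cd74 and 3.49% and 3.17% of that of H2-Ab1. Cd74 thus stood lower against macrophages than H2-Ab1 did, in each of these populations. H2-DMa stood at 15.6% and 5.79% in T cells, from 17 and 9 UMIs, above its 2.68% and 2.62% in endothelium. C1qa, a complement gene of macrophages, stood at 2.04% and 2.01% in endothelium, 1.54% and 1.43% in fibroblasts and 1.82% and 1.75% in T cells. The macrophage lysozyme gene Lyz2 stood at 2.70% and 2.33%, 2.17% and 1.83%, and 2.38% and 2.27% in these populations. Free RNA, as from broken cells in the droplets, was not tested as a source of these UMIs.

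**Figure D3:**
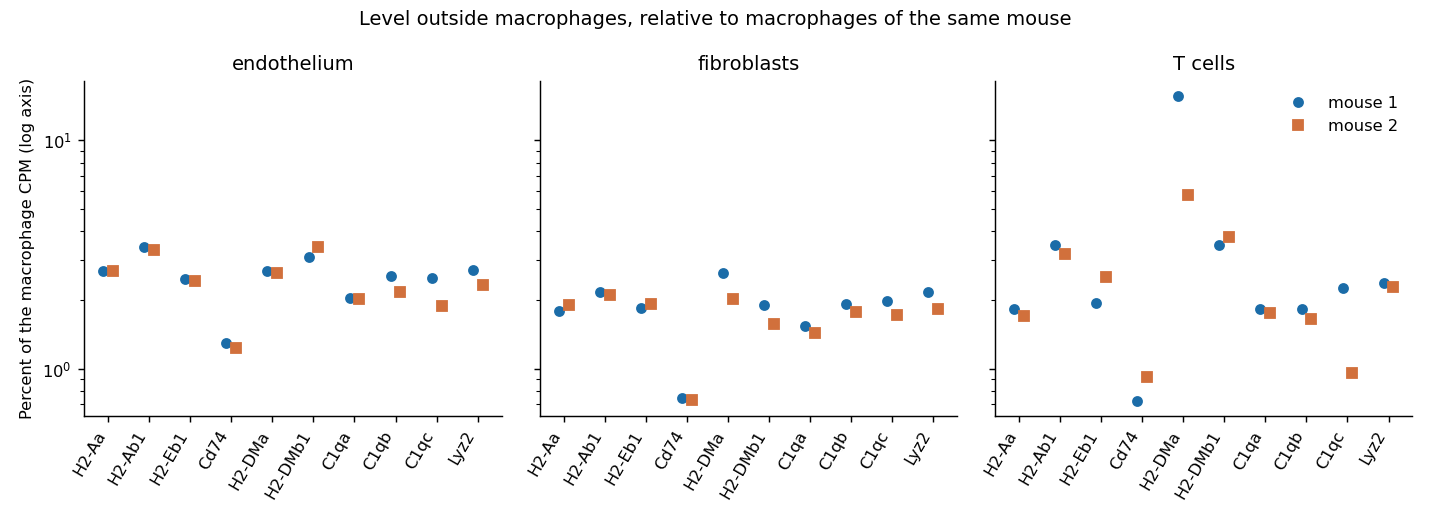
Level of 6 class II genes, 3 C1q genes and Lyz2 in endothelium, fibroblasts and T cells, as a percent of the CPM in macrophages of the same mouse (log axis), with a point per mouse. Cd74 is the lowest of the 10 genes in each panel in both mice, and the other chain genes lie near C1q and Lyz2, from 1.70% to 3.49%.

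The makeup of the class II UMIs differed between these populations. For every 100 Cd74 UMIs there were 43.6 and 42.8 of H2-Ab1 in dendritic cells and 35.4 and 36.3 in macrophages. Endothelium had 93.5 and 98.3, fibroblasts had 102.9 and 103.9, and T cells had 170.8 and 125.6, the last from 24 and 39 Cd74 UMIs. B cells, which make class II, had 20.1 and 19.9. In both mice the H2-Ab1 to Cd74 ratio was thus lowest in B cells, next in macrophages and dendritic cells, and highest in the populations with few class II UMIs. H2-DMa against 100 H2-DMb1 was 105 and 82.7 in dendritic cells and 126 and 146 in macrophages.

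Cells were thinned to 1000 UMIs to compare shares of cells at 1 depth. At least 1 UMI of the 7 genes was found in 82.0% and 94.0% of macrophages, 39.1% (exact 95% interval 35.9 to 42.4) and 55.8% (52.8 to 58.8) of endothelial cells, 31.9% (29.8 to 34.1) and 41.8% (39.1 to 44.6) of fibroblasts, and 42.0% (32.2 to 52.3) and 56.5% (45.3 to 67.2) of T cells. The shares in endothelium and fibroblasts were at or below the T cell share of the same mouse, and so not above background by this measure. The mean over thinned cells was 0.647 and 0.950 class II UMIs in endothelium, 0.422 and 0.601 in fibroblasts and 0.56 and 0.882 in T cells, with endothelium slightly above T cells in both mice, as it was in summed CPM (670 and 933, against 598 and 830 in T cells). Before thinning they were 56.4% and 70.8% in endothelium, 65.1% and 72.2% in fibroblasts and 65.3% and 80.2% in T cells, at median depths of 1480 and 1421, 2752 and 2471, and 1539 and 1761 UMIs. Thinning left out 51 and 187 endothelial cells, 13 and 40 fibroblasts, 1 and 1 T cells, and 9 and 48 macrophages.

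A few stromal cells had more. After thinning, 9 of 910 and 14 of 1111 endothelial cells had 5 or more class II UMIs (0.989% and 1.26%), with a highest cell of 49 and 17 UMIs. The same held for 6 of 1850 and 4 of 1267 fibroblasts, with a highest cell of 26 and 17. No T cell reached 5 UMIs among 100 and 85, which allows a share of up to 3.62% and 4.25%. In macrophages 57.9% and 76.1% of cells reached it.

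Other genes of the pathway were counted from lists chosen with the members. Of the 5 genes that work beside the core set, 3 passed the filter on low counts in the fit of the 4 populations, and all 3 were higher in dendritic cells than in macrophages. H2-Oa, part of the H2-O protein that restrains H2-DM, had 15 and 15 UMIs in dendritic cells (367 and 161 CPM) against 17 and 4 UMIs in macrophages (1.84 and 0.608 CPM), a log2 fold change of 7.32 ± 0.62. Its partner H2-Ob was at 3.12 ± 0.73 and H2-DMb2, the second DM beta gene, at 4.65 ± 0.47. H2-Oa passed the low-count filter only through its dendritic sums, so its higher level there was fixed by the filter. Whether the same holds for H2-Ob and H2-DMb2 was not tested, so these 3 are not set against the core genes. The core genes were at most at 1.39 in this contrast, for Ciita.

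Of 15 genes of class II antigen processing, 1 was higher and 6 were lower in dendritic cells than in macrophages. Of all genes tested, 1.39% were called higher and 3.69% lower. Ifi30, the lysosomal thiol reductase that opens disulfide bonds, was higher by 1.67, while the tetraspanin Cd63 (-4.79) and the proteases Lgmn (-4.08), Ctsd (-3.08) and Ctsb (-2.95) were lower. The list's median was -0.44, against -0.61 over all genes. In macrophages over endothelium 10 of the 15 were higher and 1 was lower, beside 13.5% and 21.4% of all genes tested. Ctsc was at 5.51, Ctss, which cuts the invariant chain, at 5.49 and March1, a ligase that removes class II from the surface, at 5.46. Ctsl was lower at -1.17. Over fibroblasts, 8 were higher and 2 were lower, beside 14.8% and 24.6% of all genes tested. The list's medians were 3.08 and 2.49.

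Of 17 genes of class II transcription, the count was 0 in dendritic cells over macrophages in either direction, beside 1.39% and 3.69% of all genes tested. In macrophages over endothelium 4 were higher and 2 were lower, beside 13.5% and 21.4%. Counts this small are not read as a result about the list. Spi1, the myeloid factor PU.1, was at 5.49 ± 0.22 and Irf8, which acts with it, at 2.86 ± 0.25, while Irf1 (-1.53) and Nfyb (-1.25), a subunit of the Y box factor, were lower. Over fibroblasts 4 were higher and 1 was lower, beside 14.8% and 24.6% of all genes tested. The genes of the X box factor, Rfx5, Rfxap and Rfxank, were in none of these calls. Of 10 costimulatory genes, 7 were tested. In macrophages over endothelium 4 of them were higher and 1 was lower, beside 13.5% and 21.4% of all genes tested. Cd86 (5.89) and Cd83 (4.27) were among the higher genes, and Cd274, the ligand PD-L1, was lower at -3.83.

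Class I genes, which present peptides from inside the cell in most tissues, had another pattern. Of 21 class I genes, 14 were higher in endothelium than in fibroblasts and 0 were lower, beside 14.3% and 16.3% of all genes tested. H2-Q6 at 5.74 and H2-Q7 at 4.15 were at the top, and the class II genes gave no call here. In macrophages over endothelium 0 were higher and 6 were lower, beside 13.5% and 21.4% of all genes tested. The largest change was H2-Q6 at -2.75. The medians of the class I list were 1.33 and -0.76, beside 0.60 and 5.34 for the 7 class II genes. H2-Q6 and H2-Q7 are near copies of each other, so their split is uncertain.

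Within macrophages the 7 genes were highest in Ccr2 macrophages and lowest in Timd4 or Lyve1 macrophages. Together they made up 85628 and 94626 CPM in Ccr2 macrophages, 15136 and 22423 CPM in Timd4 or Lyve1 macrophages and 58565 and 61758 CPM in macrophages with neither. The 23 and 9 macrophages that passed both thresholds had 46320 and 57948 CPM. The ranges of the 3 subsets did not overlap between the mice, and the share of all genes for which this holds was not counted. Timd4 or Lyve1 macrophages made up 60.7% and 41.3% of macrophages, those with neither 34.2% and 53.6%, and Ccr2 macrophages 4.40% and 4.74%, so the whole-macrophage level of each mouse rests on a different mixture.

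Cd74 had 42787 and 46652 CPM in Ccr2 macrophages, 7797 and 11345 in Timd4 or Lyve1 macrophages and 29988 and 31264 in macrophages with neither. H2-Ab1 had 16430 and 17610 CPM, 2698 and 4117 CPM, and 10494 and 11266 CPM in the same order of subsets. H2-Eb1 had 11283 and 12632 CPM, 1782 and 2555 CPM, and 7641 and 8058 CPM. For these and for H2-Aa, the 2 mice lay close together in the Ccr2 and neither subsets and apart in Timd4 or Lyve1 macrophages, with mouse 2 the higher. H2-DMb1 had 1254 and 1270 CPM in Ccr2 macrophages, 230 and 323 in Timd4 or Lyve1 macrophages and 693 and 725 in those with neither. Ciita had 63.5 and 83.4 CPM, 5.06 and 15.9 CPM, and 18.5 and 43.0 CPM in these subsets, from 34 and 34, 30 and 48, and 49 and 134 UMIs. For Ciita the subsets kept the same order, with Timd4 or Lyve1 macrophages of mouse 2 near those with neither of mouse 1.

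The subsets and the dendritic cells were compared in a second edgeR fit over 9117 genes, with calls at a Benjamini-Hochberg adjusted p under 0.05 whatever the fold. In Ccr2 over Timd4 or Lyve1 macrophages all 7 genes were higher, beside 5.64% of genes called higher and 7.99% called lower. The log2 fold changes were 2.24 ± 0.16 for H2-Aa, 2.34 ± 0.17 for H2-Ab1, 2.47 ± 0.16 for H2-Eb1 and 2.24 ± 0.19 for Cd74. H2-DMa was at 1.83 ± 0.13, H2-DMb1 at 2.22 ± 0.12 and Ciita at 2.94 ± 0.29. The median over all genes was -0.10, and in this comparison the higher share of calls was 41.4% with edgeR and 53.2% with DESeq2. Without the mouse block the 7 calls held, with edgeR adjusted p-values from 5.57e-05 for H2-Eb1 to 0.00851 for Ciita.

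Timd4 or Lyve1 macrophages were lower than macrophages with neither in all 7 genes, beside 5.71% of genes called lower and 6.24% called higher. Here H2-Eb1 differed most, at -1.89 ± 0.16, and H2-DMa least, at -1.21 ± 0.12. Ciita, at -1.65 ± 0.21, had an edgeR adjusted p of 1.32e-12 with the block and 0.193 without it, and the other 6 stayed below 0.05 in both. Ccr2 macrophages were higher than macrophages with neither in 6 of the 7, beside 2.59% of genes called higher and 3.69% called lower. The values ran from 0.55 ± 0.16 for H2-Aa to 1.29 ± 0.25 for Ciita, and Cd74 at 0.52 ± 0.18 had an edgeR adjusted p of 0.0571, which was below 0.05 in 10 of 15 alternatives. Without the block none of the 7 was called in this comparison, beside 39 of 9117 genes called higher. The lowest edgeR adjusted p there was 0.118 for H2-DMb1. DESeq2 with the block called 3, beside 119 genes called higher.

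Dendritic cells were not higher than Ccr2 macrophages in any of the 7 genes, beside 0.856% of genes called higher. H2-DMa was lower by this fit, at -0.57 ± 0.17 with an edgeR adjusted p of 0.0345, beside 2.99% of genes called lower. The other 6 lay between -0.17 and -0.39, near the median of all genes at -0.33. With library size alone, the 7 values ran from -0.24 to 0.17 and none was called, and the higher share of calls was 49.8% against 22.2% with TMM. In mouse 1 alone H2-DMa was at 0.12, and H2-Ab1 (0.46), H2-Eb1 (0.41), Cd74 (0.28) and H2-Aa (0.28) were above 0 as well, while in mouse 2 alone these 5 were below 0. H2-DMb1 and Ciita were above 0 in each mouse alone. These single-mouse values are log2 ratios of CPM without TMM scaling, so their scale is that of library size alone and not that of the fit. No direction is given for any of the 7.

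The median log2 fold change of Ccr2 over Timd4 or Lyve1 macrophages was 2.24 for the 7 genes, -0.31 for the processing list and 0.25 for the class I list. In this comparison 5.64% of all genes tested were called higher and 7.99% lower. Of 15 processing genes, 4 were higher and 4 were lower in Ccr2 than in Timd4 or Lyve1 macrophages. Ctss at 0.81 and Ifi30 at 0.62 were among the higher genes, and Cd63 at -1.88 and Ctsb at -1.18 among the lower. Of 17 transcription genes 3 were higher, among them Ifngr1, a chain of the interferon gamma receptor, at 0.62 and Irf8 at 0.41, and 0 were lower. In Timd4 or Lyve1 macrophages over those with neither, 4 of the 17 were lower, beside 5.71% of all genes tested. Among them were Irf8 at -0.65, Ifngr1 at -0.50 and Ifngr2 at -0.41. Spi1 was not among these calls, with 473 and 397 CPM in Ccr2 macrophages, 436 and 419 in Timd4 or Lyve1 macrophages and 441 and 440 in those with neither. Among 6 costimulatory genes tested, Cd86 was lower in Ccr2 macrophages than in those with neither, at -0.76, and so was Cd83, at -1.13. Of 21 class I genes 5 were higher in Ccr2 than in Timd4 or Lyve1 macrophages, beside 5.64% of all genes tested. H2-Q6 was at 1.58 and Tap1, a peptide transporter subunit, at 1.15.

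Markers outside the rule moved with the subsets. The 6 resident macrophage markers, such as Folr2 and Cd163, summed to 1916 and 2209 CPM in Ccr2 macrophages, 9847 and 11806 CPM in Timd4 or Lyve1 macrophages and 4975 and 6574 CPM in those with neither. The 5 monocyte markers summed to 430 and 46.6 CPM in Ccr2 macrophages and 15.8 and 2.99 CPM in Timd4 or Lyve1 macrophages. The part of newly arrived monocytes in the class II difference was not tested. The 5 cDC1 markers summed to 54.2 and 46.6 CPM in Ccr2 macrophages, with 3 and 3 of them at 0. The 10 dendritic markers summed to 1224 and 1204 CPM in Ccr2 macrophages, 1046 and 1075 CPM in Timd4 or Lyve1 macrophages and 930 and 888 CPM in those with neither. The 9 cardiomyocyte genes summed to 759 and 346 CPM in Ccr2 macrophages, 602 and 209 CPM in Timd4 or Lyve1 macrophages and 994 and 360 CPM in those with neither. In Timd4 or Lyve1 macrophages over those with neither, 8 of the 8 cardiomyocyte genes tested were called lower, beside 5.71% of all genes tested. Their median was -0.76, so they moved the same way as the class II genes. The part of cardiomyocyte RNA, and of dendritic cells among the Ccr2 macrophages, was not tested.

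The class II level followed the UMIs that set the subsets in steps. With fewer than 2 Ccr2 UMIs, the summed level of the 7 genes was 67905 and 71617 CPM at 0 UMIs of Timd4 and Lyve1, 39208 and 39440 CPM at 1 UMI, 25063 and 32664 CPM at 2 UMIs, 17798 and 22223 CPM at 3 to 5 UMIs and 10586 and 15454 CPM at 6 or more. The subset threshold lies between 1 and 2 UMIs, where the difference was smaller than that between 0 and 1 UMI in both mice. With fewer than 2 UMIs of Timd4 and Lyve1, the level was 55805 and 59908 CPM at 0 Ccr2 UMIs and 82498 and 90156 CPM at 1 UMI, which is outside the threshold. It was 86028 and 95362 CPM at 2 and 85484 and 94269 CPM at 3 or more. Cells with 1 Ccr2 UMI were thus near those with more, so the neither subset holds cells with the level of the Ccr2 subset. The bins also differed in depth. The median was 2352 and 2314 UMIs at 0 UMIs of Timd4 and Lyve1 and 3503.5 and 3526 at 6 or more. It was 2355 and 2351 at 0 Ccr2 UMIs and 3882 and 3481 at 3 or more. The part of depth in these steps was not tested.

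**Figure D4:**
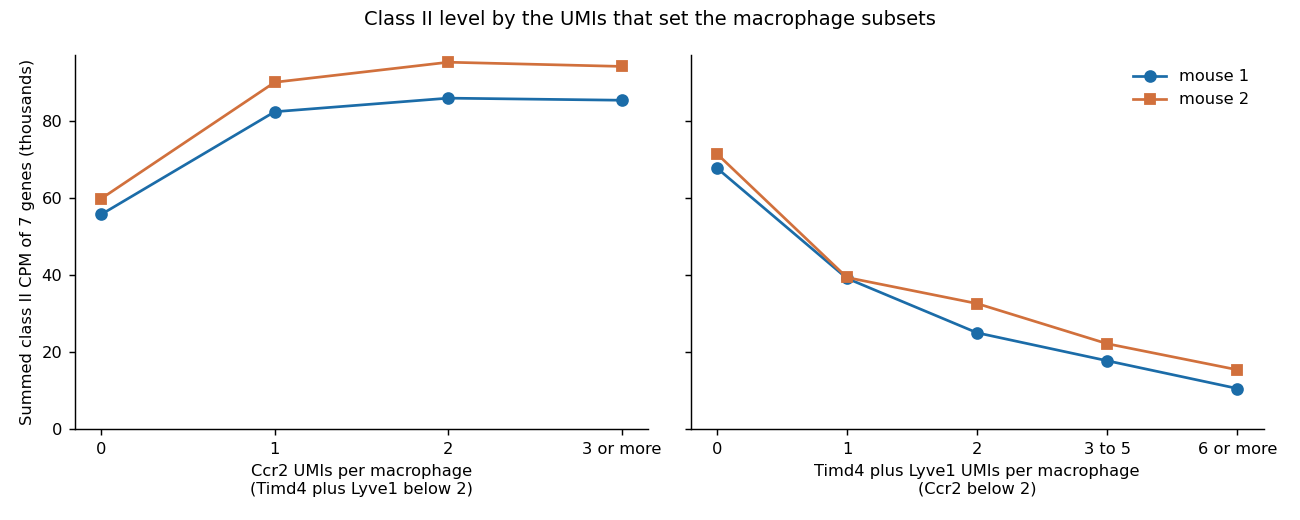
Summed CPM of the 7 genes (axis in units of 1000 CPM) in macrophages grouped by Ccr2 UMIs, left, and by Timd4 plus Lyve1 UMIs, right, with a line per mouse. The level is near its plateau from 1 Ccr2 UMI on, and is lower at each added step of Timd4 plus Lyve1 UMIs in both mice.

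The 2 resident genes were also looked at by themselves, in 1 bin each. Macrophages with at least 2 Timd4 UMIs, whatever their Lyve1 UMIs, had 11865 and 22366 CPM, and those with at least 2 Lyve1 UMIs and no Timd4 UMI had 15628 and 22206 CPM. At the C1q threshold, cells with 15 to 19 UMIs, just inside, had 44454 and 47426 CPM, and cells with 10 to 14, in no population, had 38617 and 57510 CPM. The 13 and 15 macrophages with a Cd209a UMI had 48117 and 68500 CPM. Dendritic cells with at least 2 Cd209a UMIs had 107432 and 84050 CPM, and the 5 cells of mouse 2 with 1 UMI had 31996 CPM.

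The spread between single macrophages was described after each cell was thinned to 2000 UMIs, which kept 2443 cells of mouse 1 and 1797 of mouse 2 and left out 558 and 565 shallower ones. A macrophage had on average 65.5 and 94.4 class II UMIs of its 2000, with an SD over cells of 77.8 and 86.3. The median was 23 and 73, the middle 90% of cells ran from 0 to 219 and from 1 to 247, and the highest cell had 348 and 352. No class II UMI was seen in 9.17% (exact 95% interval 8.05 to 10.4) and 2.67% (1.98 to 3.53) of these cells. At 10 UMIs or fewer were 44.0% and 26.1% of macrophages, and at 100 or more were 30.5% and 43.9%. Single macrophages of both hearts thus ran from cells with no class II UMI to cells in which these 7 genes gave 348 and 352 of the 2000 UMIs.

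**Figure D5:**
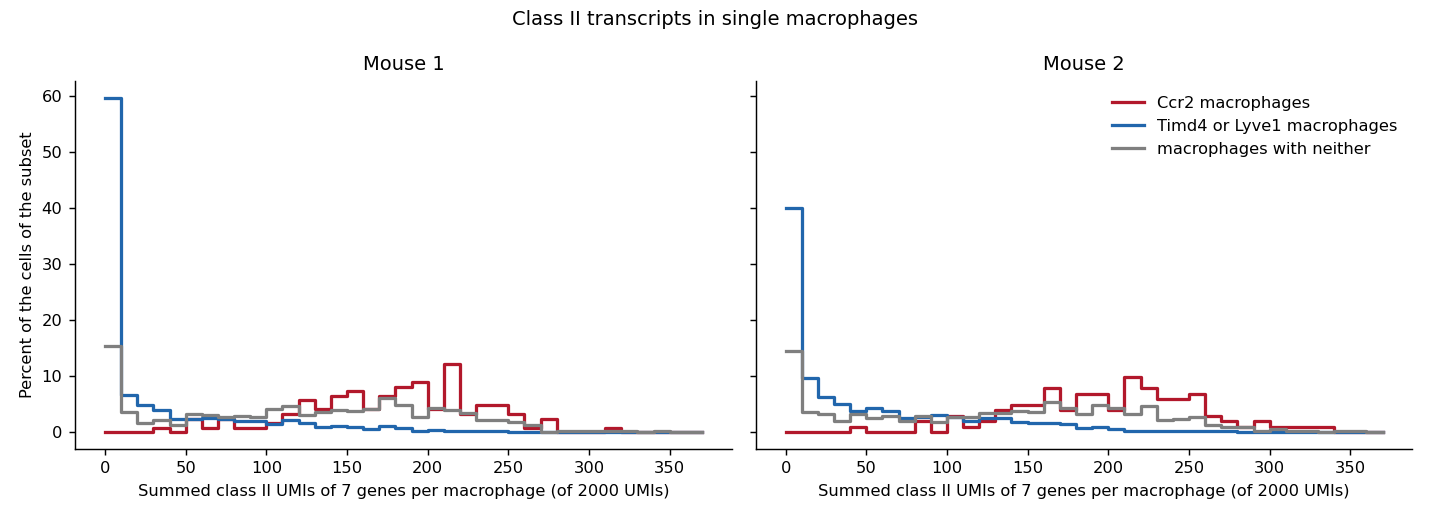
Distribution of the summed UMIs of the 7 genes over single macrophages thinned to 2000 UMIs, in bins of 10 UMIs, as a percent of the cells of each subset, for each mouse. Timd4 or Lyve1 macrophages pile up in the lowest bin with a tail, Ccr2 macrophages form a hump above 100 UMIs, and macrophages with neither span both.

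Much of the width was between subsets, and much was within them. The median was 184 and 204.5 UMIs in Ccr2 macrophages, 4 and 21 in Timd4 or Lyve1 macrophages and 128 and 137.5 in those with neither. Every thinned Ccr2 macrophage (124 and 102 cells) lay above the median of Timd4 or Lyve1 macrophages in its mouse. Of Timd4 or Lyve1 macrophages, 6.51% and 9.81% lay above the median of those with neither. At 10 UMIs or fewer were 0% and 0% of Ccr2 macrophages, 60.7% and 41.0% of Timd4 or Lyve1 macrophages and 15.8% and 14.7% of those with neither. At 100 or more were 91.9% and 97.1%, 11.5% and 19.1%, and 61.3% and 61.4%.

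The coefficient of variation beyond counting error was 0.293 and 0.266 in Ccr2 macrophages, 1.58 and 1.18 in Timd4 or Lyve1 macrophages and 0.662 and 0.676 in those with neither. Over all macrophages it was 1.18 and 0.909. Ccr2 macrophages were thus the most even subset and Timd4 or Lyve1 macrophages the least even, in both mice. Over cells, the correlation of the summed UMIs with the depth before thinning was -0.05 and -0.15, and with the mitochondrial share -0.05 and -0.03.

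Cd74 had a median of 13 and 38 UMIs per thinned macrophage and a highest cell of 190 and 194, and 23.4% and 9.79% of cells had none. Its Fano factor, the variance over the mean, was 47.7 and 40.7, the second highest of 2489 and 2474 genes with a mean of at least 0.1 UMIs, whose median was 1.04 and 1.04. The gene above it was S100a8, a neutrophil gene, in mouse 1, and Retnla, a gene of alternatively activated macrophages, in mouse 2. H2-Ab1 ranked 7 and 5 at 19.3 and 16.4, H2-Aa ranked 10 and 6 and H2-Eb1 ranked 11 and 9. The DM genes were near 2, with H2-DMa at 2.00 and 1.91 and H2-DMb1 at 2.03 and 1.90, at ranks between 76 and 81. The Fano factor grows with the mean, and by the squared coefficient of variation beyond counting Cd74 ranked 95 and 184. Ciita, with at most 2 UMIs in a thinned cell and 98.1% and 94.5% of cells at 0, was too sparse to rank.

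The chain genes and Cd74 varied together from cell to cell. Over all thinned macrophages the 6 pairs among H2-Aa, H2-Ab1, H2-Eb1 and Cd74 had Pearson correlations of log2 UMIs between 0.92 and 0.94 in both mice. The H2-DMa and H2-DMb1 pair stood at 0.50 and 0.46, and Ciita with the others between 0.14 and 0.17, at means far below 1 UMI for Ciita. Within Timd4 or Lyve1 macrophages the 6 pairs ran from 0.87 to 0.91, within those with neither from 0.92 to 0.94, and within Ccr2 macrophages, the most even subset, from 0.64 to 0.79. These values share the cells, libraries and thinning, and are descriptions.

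Of 3859 genes found in at least 5% of thinned macrophages, Cd52, a leukocyte surface glycoprotein, was most like the summed class II UMIs from cell to cell, with a correlation of 0.47 and 0.45. Plbd1 (0.29 and 0.28), Tmem176a (0.26 and 0.25), Tmem176b (0.27 and 0.25), Ctss (0.28 and 0.24), Fcgr4 (0.31 and 0.23) and Clec4b1 (0.27 and 0.23) followed, with Ccr2 (0.28 and 0.25), which the subset rule used. The ribosomal protein genes Rpl13 (0.24 and 0.22) and Rplp0 (0.21 and 0.21) closed the 10. At the other end were Wfdc17 (-0.56 and -0.54), the chemokine Pf4 (-0.52 and -0.54), the folate receptor Folr2 (-0.54 and -0.50), Ninj1 (-0.50 and -0.47) and F13a1 (-0.45 and -0.44), the transglutaminase of coagulation factor XIII. Lyve1 itself stood at -0.53 and -0.43 and Timd4, seen in few cells, at -0.14 and -0.15.

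Across the 12 sums of macrophage subsets, dendritic cells, endothelium and fibroblasts, the most alike of 4210 genes by Pearson correlation of log2 CPM were Scimp, a transmembrane adaptor, at 0.99, then Cd52, Coro1a, Ptprc, Plbd1, Ctsh, Slamf9, Lat2, Ptpn6 and Ppfia4, down to 0.98. Scimp had 245 and 64.5 CPM in dendritic cells, 93.4 and 98.1 in Ccr2 macrophages, 24.1 and 31.2 in Timd4 or Lyve1 macrophages, 84.0 and 98.6 in those with neither, 1.20 and 1.92 in endothelium and 0.378 and 0.604 in fibroblasts. Ptprc encodes CD45, which all nucleated blood cells carry, and 4 of the 12 sums are of endothelium and fibroblasts. Cd52 and Plbd1 were on both lists, across sums and between single macrophages.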

How the data were processed

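Per the labels, cells of 1 mouse per library were sorted as live and run on the droplet 3' kit; per the submitters' processing notes, Cell Ranger 2.2.0, FastQC and the mm10 build were used. The deposited values are counts, raw UMIs per gene symbol and barcode, with no normalization. Barcodes were kept with at least 500 UMIs, 300 genes and at most 10% mitochondrial UMIs, which left out 719 and 432, and Scrublet (scanpy 1.11.5) called 405 and 248 doublets, also left out. Cells that met more than 1 population rule, 150 and 97, went into none, and 513 and 491 met none.

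Sums of UMIs per population and mouse entered edgeR 4.0.16, run in R 4.3.3, whose quasi-likelihood F tests followed TMM scaling and filterByExpr. Mouse was a replicate block because all populations come from the same 2 animals. Each fit had 8 sums and 3 residual degrees of freedom, so p-values lean on a spread shared across genes, and the fold changes carry SE derived from the F statistic. The fits were tested on simulated data. Other settings tried were DESeq2 1.42.0, other scalings, filters, thresholds and depths, and each mouse alone. Values of each mouse alone are log2 ratios of CPM, without TMM scaling and without a test. Cells were thinned by drawing UMIs without replacement (numpy 2.4.6, scipy 1.17.1). Poisson, binomial ratio and Clopper-Pearson intervals have a 95% level, and intervals and floors cover counting error only. Symbols of the lists that were not in the tables were not analysed here.

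The members, lists and thresholds were chosen with earlier results of these data known. Named genes were the 7 members, the 10 genes most and 5 least like them, and up to 4 called genes per list by size of change, where counts allowed a ratio.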

Additional observations from a re-analysis of the deposited data

How the results depend on the processing

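The calls of all 7 genes in macrophages over endothelium, macrophages over fibroblasts and Ccr2 over Timd4 or Lyve1 macrophages held under every alternative run that gives a test. In dendritic cells over macrophages, 2 of the 7 were called higher, beside 161 of 11562 genes. The number was 5 with library size alone (beside 256) or with no fold threshold (179). It was 0 with no low-count filter (151 of 17582) or a C1q threshold of 10 (129 of 11551). That C1q threshold of macrophages went with a lower C1q ceiling for dendritic cells. In endothelium over fibroblasts, 0 were called, beside 1651 of 11562 genes called higher and 1890 called lower. With no fold threshold 4 were called, beside 2428 called higher. The number was 2 with doublet calls kept (1642 of 11585 called higher) and 1 with stricter thresholds (1598 of 11334). In Ccr2 macrophages over those with neither, 6 were called higher, beside 236 of 9117 genes. DESeq2 called 3 (beside 119), a fold threshold of 2 gave 1 (125) and leaving out the replicate block gave 0 (39). In dendritic cells over Ccr2 macrophages, 1 was called, lower in dendritic cells, beside 273 of 9117 genes tested that were called lower. With no low-count filter 4 were called lower, beside 264 of 15774. A C1q threshold of 10 gave 2 lower, beside 303 of 9131, and cells thinned to 2000 UMIs gave 5 lower, beside 178 of 7272. The number was 0 by DESeq2, with library size alone, with DESeq2 size factors, with a fold threshold of 2 and without the replicate block. H2-DMa in this comparison turned to 0.125 without replicate 2 and was -0.405 without replicate 1. Both are log2 ratios of CPM without TMM scaling, a range of values with no test. The cause was not tested for any of these.

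Counts over all genes moved too. With no fold threshold, 6107 genes were called in macrophages over endothelium (4037 with it) and 7125 in macrophages over fibroblasts (4563 with it). Without the replicate block, the pairing by animal, 287 genes were called in Ccr2 over Timd4 or Lyve1 macrophages (1242 with it), 74 in Ccr2 macrophages over those with neither (572), 67 in Timd4 or Lyve1 macrophages over those with neither (1090) and 126 in dendritic cells over Ccr2 macrophages (351). In the same order DESeq2 called 658, 241, 223 and 216, and thinned cells gave 420, 138, 664 and 200, where fewer genes were tested. A fold threshold of 2 gave 693, 308 and 261 in the comparisons of macrophage subsets, and a C1q threshold of 30 gave 371 in Ccr2 macrophages over those with neither. The share of higher calls in Ccr2 over Timd4 or Lyve1 macrophages was 53.6% with doublet calls kept, against 41.4%. Leaving out the barcodes found in both libraries was added after the data were seen and gave 54.3%. Without them 7 of the 7 genes were called in Ccr2 macrophages over those with neither, beside 323 of 9095 called higher. With them it was 6, beside 236 of 9117. The number of the 7 genes called was the same in the other comparisons. The coefficient of variation of the summed genes over macrophages, 1.05 as a mean of the mice, was 0.909 to 1.18 in single mice, 1.03 at 1000 UMIs, 1.14 at 4000 and 1.06 at a C1q threshold of 30.

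The number of cells limits the dendritic values, few UMIs limit Ciita, and 2 animals limit the tests.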

Other observations

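Cells that met no population rule were split after their values had been seen. The 7 and 24 cells among them with a UMI of Xcr1 or Clec9a, genes of cDC1 dendritic cells that carry no Cd209a, had 67537 and 73568 CPM of the 7 class II genes together, with a median of 443 and 495.5 class II UMIs per cell. They held 29.6% and 47.5% of the class II UMIs in no population. The 76 and 20 cells with at least 3 UMIs of the monocyte genes Ly6c2 and Plac8 together had 3251 and 19498 CPM, but a median of 2 and 2.5 class II UMIs per cell and a highest cell of 193 and 393. The other 430 and 447 cells had 11326 and 20609 CPM, with a median of 1 and 2 UMIs and a highest cell of 1050 and 546. B cells, 10 and 21 in number, had 30312 and 35041 CPM, with Cd74 at 20257 and 22629 CPM and H2-DMb1 at 1 and 3 UMIs.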
